A study of Mus musculus and Homo sapiens with 18 samples.

Results

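The 42 genes described here are myeloid and pan-leukocyte genes, that is, genes whose transcripts mark white blood cells in general or the monocyte, macrophage and microglia branch of them. The list was drawn up by name after earlier inspection of these counts, because counts of leukocyte genes were higher in Qki-deficient lenses than in control lenses, and the lens comparison therefore describes the list and does not test it. The lens table held 46882 genes and that of the neural progenitor-derived cells held 54838, and all 42 genes were found in both. The human table held 60880 rows, and 38 of the 42 were found there under the upper-case symbol. Lyz2, Fcgr1, Fcgr3 and Fcgr4 had no such symbol and were dropped.

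The study deposited 18 RNA-seq libraries in 6 groups of 3. Lenses came from Qk-iCKO mice, with the genotype Nestin-CreERT2; QkL/L, and from Ctrl mice, with the genotype Nestin-CreERT2; QkL/+, so that both groups carried the tamoxifen-inducible Cre recombinase under the Nestin promoter and at least 1 floxed Qk allele. The labels give that genotype for all 3 Ctrl lenses, while the methods of the study also name littermates without Cre or without a floxed allele as controls. Both received tamoxifen at P7 and P8, and whole lenses were dissected at P17 to P19. The mice were C57BL/6. NLPCs are lens progenitor-like cells differentiated from neural stem cells of P1 mouse brain with Noggin and then with bFGF, BMP4 and BMP7. They were labelled wild type (WT) or Qk-/-, the deletion having been induced with 4-hydroxytamoxifen in cells from Nestin-CreERT2;QkL/L mice. HLE-B3 cells, an established epithelial cell line of the human lens, were grown in medium with 20% serum, as WT cells or as CRISPR-edited QKI KO cells. The sources used here do not say whether the QKI KO cells were 1 clone. The study states in general that its cell line work used independent biological replicates, but the labels do not say how the NLPC and HLE-B3 libraries were separated, and their p-values measure the spread between these libraries.

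Library totals were 10319320 to 16425331 counts in the lens, 28154202 to 68243360 in the NLPCs and 69190864 to 81384471 in HLE-B3. In CPM (counts scaled to a common library size, the usual per-million unit) on library sizes scaled by the trimmed mean of M-values (TMM), Qk was at 116 to 127 in Ctrl lenses and 86.7 to 106 in Qk-iCKO lenses, and QKI was at 257 to 263 in WT and 100.2 to 105 in QKI KO cells. In NLPCs Qk was at 2440 to 2670 in WT and at 3083 to 3593 in the libraries labelled Qk-/-, and so was not lower there. These are counts over the whole gene, and reads outside the deleted exon are included. They therefore cannot show whether that exon was lost, and do not test the labels. The study reports from immunofluorescent staining that Qki was abolished in neural stem cells and NLPCs once deletion had been induced. Its figure legends place the staining in the neural stem cells and list an immunoblot for Qki-5 in WT and Qk-/- NLPCs. Qk-iCKO lens 1 stood apart in its TMM factor, at 1.47, the rest of the lenses having factors between 0.889 and 0.962. Scaling by total counts alone moved the median log2 fold change of all lens genes tested from 0.0064 to 0.29. It also changed the split of calls among all genes from 1023 higher and 473 lower to 768 higher and 118 lower.

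Leukocytes share a set of surface and cytoskeletal proteins, of which the phosphatase CD45 is the best known, and the transcription factor PU.1 directs the myeloid branch. Macrophages and microglia depend on signalling through the CSF1 receptor, sense antibody-coated and damaged material through Fc, scavenger and lipid receptors that signal through adaptors with an immunoreceptor tyrosine-based activation motif (ITAM), and digest what they engulf with lysozyme, lysosomal enzymes and the phagocyte NADPH oxidase. The lens itself is avascular and enclosed in a capsule. Macrophages are found close to it, in the vitreous and around the hyaloid vessels, which regress after birth in the mouse. In bulk RNA, more cells of a type and more RNA per cell cannot be told apart.

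Because the genes share a lineage, their promoters were searched for the binding sequence of PU.1, which is encoded by the member Spi1. RefSeq windows from 250 bases before to 50 bases after the start site (GRCm38.p6) were held for 30 of the 42 genes, in 39 windows. The 8-base sequence GAGGAAGT, searched on both strands, was in 3 member windows (7.69%) and in 3.20% of all 32851 windows. The 3 promoters are shown because they are the ones that hold it, with the match in capitals. They belong to Cd53, a tetraspanin of leukocytes (chr3:106790100-106790399, minus strand), Fcgr4, an activating IgG receptor of myeloid cells (chr1:171018676-171018975, plus strand), and Pld4, a lysosomal exonuclease of phagocytes (chr12:112760405-112760704, plus strand), each written 5′ to 3′ along the gene.
Cd53: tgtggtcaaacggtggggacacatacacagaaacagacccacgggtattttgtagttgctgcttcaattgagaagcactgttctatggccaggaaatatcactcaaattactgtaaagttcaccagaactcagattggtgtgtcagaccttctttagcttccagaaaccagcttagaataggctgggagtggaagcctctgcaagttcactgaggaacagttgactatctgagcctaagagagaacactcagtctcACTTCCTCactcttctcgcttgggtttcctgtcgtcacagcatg
Fcgr4: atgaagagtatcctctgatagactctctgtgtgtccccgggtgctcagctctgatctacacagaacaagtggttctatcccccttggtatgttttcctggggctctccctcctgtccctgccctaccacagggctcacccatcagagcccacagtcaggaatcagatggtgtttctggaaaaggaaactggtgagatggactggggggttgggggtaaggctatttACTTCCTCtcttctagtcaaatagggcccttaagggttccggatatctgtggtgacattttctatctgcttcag
Pld4: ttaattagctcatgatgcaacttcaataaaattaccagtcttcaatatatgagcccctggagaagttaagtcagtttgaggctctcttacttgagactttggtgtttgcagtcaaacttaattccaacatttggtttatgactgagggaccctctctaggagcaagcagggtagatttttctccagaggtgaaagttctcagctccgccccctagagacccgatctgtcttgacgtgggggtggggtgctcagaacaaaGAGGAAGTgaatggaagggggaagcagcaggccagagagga

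The match lay on the strand opposite to the gene in Cd53 and Fcgr4 (ACTTCCTC) and on the gene's own strand in Pld4. Its first base was 7 bases after the start site in Cd53, 24 before it in Fcgr4 and 10 after it in Pld4. The shorter sequence GAGGAA, which every copy of the 8-base one contains, was in 20 member windows of 18 genes (51.3%) and in 28.3% of all windows. Of the E-box sequences bound by MITF and related factors, CACGTG was in no member window against 7.15% of all windows, and CATGTG was in 5 (12.8%) against 14.2%. A match is a description of the letters in the window and does not show binding.

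In the lens, the list was near the floor in Ctrl and well above it in Qk-iCKO. The fold quoted for each gene is the ratio of the summed counts of the groups per summed effective library size, with a 95% exact interval that covers counting error only. For the 5 genes with no count in any Ctrl lens (Aif1, Cd52, Was, Lst1 and Cd86), the fold is a lower bound set against a floor of 3 counts over the Ctrl group. Over all 42 genes the median fold, with those bounds, was 27.8 and the range 1.24 to 337. The lower end of the counting interval lay above 1 for 41 of the 42, Fcgr1 being the exception. The 3 Qk-iCKO lenses were all above the 3 Ctrl lenses for 39 genes, while Csf2ra, Fcgr1 and Lst1 overlapped. Over all lens genes tested, the groups did not overlap, with Qk-iCKO higher, in 18.2%, and in 31 of the 32 listed genes tested. The filter on low counts left 32 of the 42 for the edgeR quasi-likelihood test, and 30 of these were called higher at an adjusted p of 0.05 and none lower. By comparison 8.38% of all 12201 genes tested were called higher and 3.88% lower. Neither share is evidence about the list, since this contrast chose the genes and several of them passed the filter only through the Qk-iCKO lenses. The 10 genes below the filter were Aif1, Cd14, Cd48, Ikzf1, Ncf4, Fcgr1, Was, Lst1, Ms4a7 and Cd86.

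**Figure D1:**
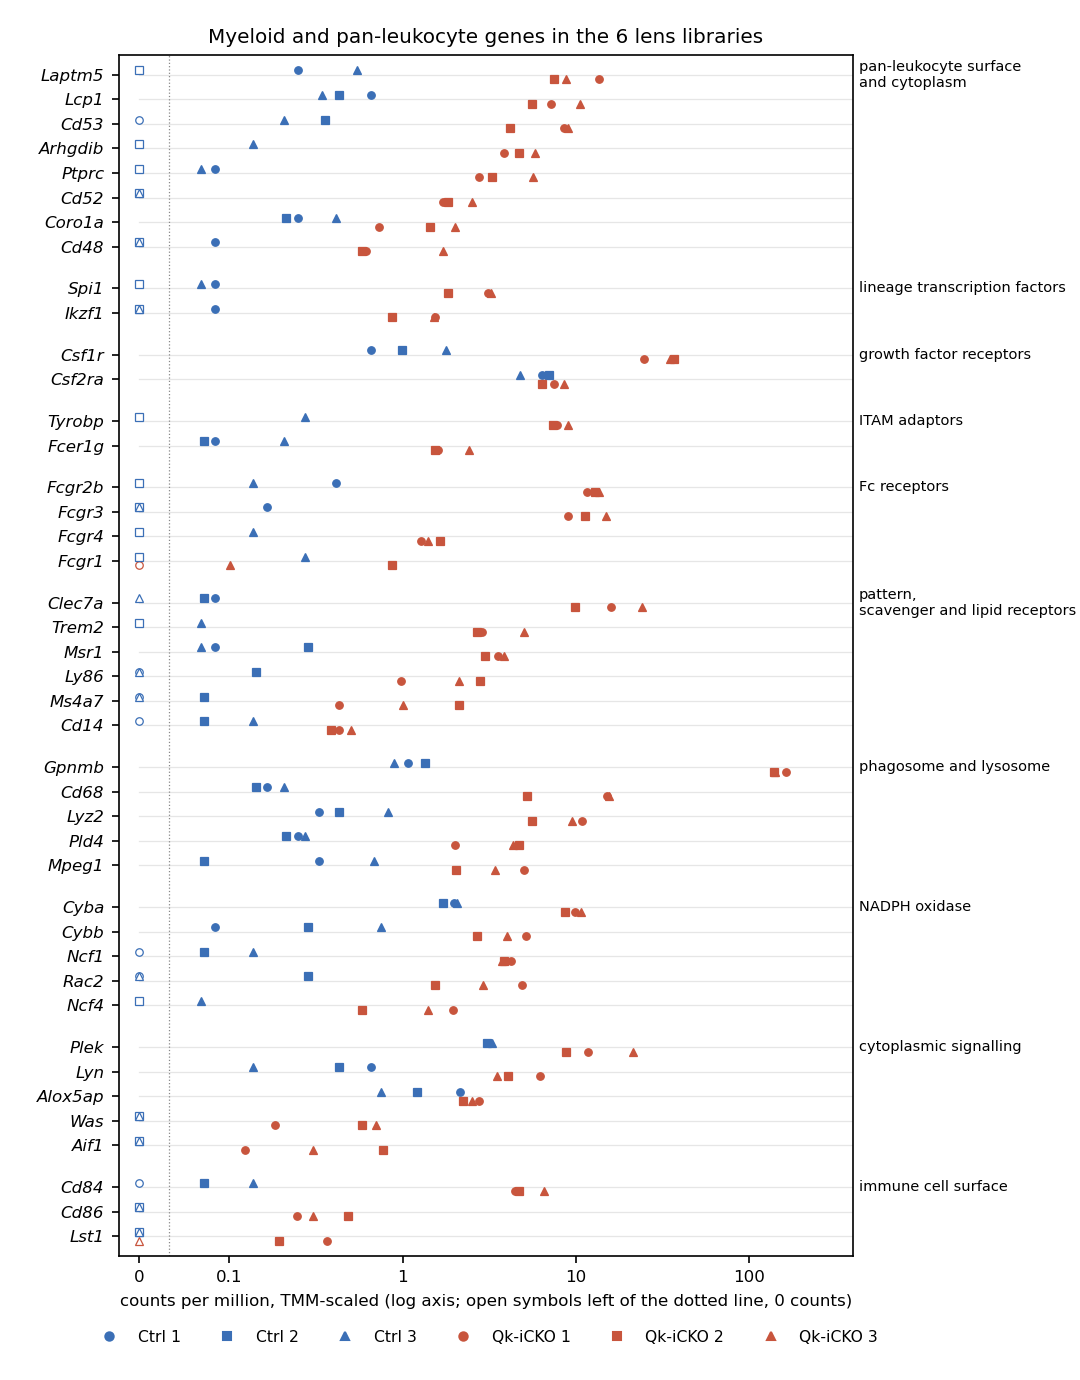
Level of each of the 42 genes in each lens library, in TMM-scaled CPM on a log axis, grouped by role. Blue symbols are the 3 Ctrl lenses, red symbols the 3 Qk-iCKO lenses, and open symbols left of the dotted line have 0 counts. For 39 genes every red symbol lies to the right of every blue one, and Csf2ra, Fcgr1 and Lst1 overlap.

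Genes shared by all leukocytes had almost no counts in Ctrl lenses. Ptprc, which encodes CD45, had 1, 0 and 1 counts in the Ctrl lenses and 45, 34 and 56 in the Qk-iCKO lenses, a ratio of 75.1 (20.4 to 627). The groups were far apart, and the Ctrl side of the ratio rests on 2 counts. Cd52, a small glycosylated surface peptide of lymphocytes and monocytes, had no count in Ctrl and 28, 19 and 25 in Qk-iCKO, at least 26.7-fold higher. Arhgdib, a GDP-dissociation inhibitor of blood cells, had 0, 0 and 2 counts against 63, 49 and 58, a ratio of 94.6 (25.8 to 788). The lysosomal membrane protein gene Laptm5 (39.3-fold), the tetraspanin gene Cd53 (37.7-fold) and the actin-bundling L-plastin gene Lcp1 (16.5-fold) were also higher in every Qk-iCKO lens. Cd48, a ligand of SLAM-family receptors, was under the filter, with 1, 0 and 0 against 10, 6 and 17 counts. The smallest difference in this group was in Coro1a, an actin regulator of leukocytes, with 3, 3 and 6 counts in Ctrl and 12, 15 and 20 in Qk-iCKO (log2 fold change 2.18 ± 0.52 SE).

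The lineage factors were at the same low level in Ctrl. Spi1 (PU.1) had 1, 0 and 1 counts in Ctrl and 51, 19 and 32 in Qk-iCKO, a ratio of 56.8 (15.3 to 475). Ikzf1, which encodes the lymphoid and myeloid factor Ikaros, had 1, 0 and 0 against 25, 9 and 15 counts and was under the filter. For both genes Qk-iCKO lens 2 had the lowest count and still exceeded every Ctrl lens.

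The receptors for colony-stimulating factors differed from each other. Csf1r, the receptor on which macrophages depend, had 8, 14 and 26 counts in Ctrl and 405, 382 and 349 in Qk-iCKO, 26.3-fold higher (19.7 to 35.9; log2 fold change 4.78 ± 0.34 SE). It had the second largest number of counts in the Qk-iCKO lenses of all 42 genes, 8.32% of their sum. Csf2ra, a subunit of the GM-CSF receptor, had 77, 98 and 70 counts against 122, 66 and 85, and the groups overlapped (log2 fold change 0.31 ± 0.21 SE). It was the most counted of the 42 genes in Ctrl, where it made up 30.9% of the sum. Of 6 growth factor genes, Csf1, the main ligand of the CSF1 receptor, was the only one tested and rose, with 33, 23 and 19 counts in Ctrl and 130, 113 and 57 in Qk-iCKO (log2 fold change 2.13 ± 0.35 SE). The other ligand of that receptor, Il34, had 3, 1 and 1 counts against 31, 14 and 4, a ratio of 10.9 (4.37 to 35.1), and was under the filter. Csf2, which encodes GM-CSF, had 1 count in all 6 lenses.

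The ITAM adaptors were higher, as was Trem2, which pairs with Tyrobp. Tyrobp (DAP12), the adaptor of TREM2 and related receptors, had 0, 0 and 4 counts in Ctrl and 127, 77 and 90 in Qk-iCKO, a ratio of 81.8 (31.6 to 302). Fcer1g, the common gamma chain of Fc receptors, had 1, 1 and 3 against 26, 16 and 24 counts, a ratio of 14.7 (5.99 to 46.7). Both adaptors were higher in all 3 Qk-iCKO lenses, Tyrobp by the larger fold. Trem2, a lipid-sensing receptor that signals through DAP12, had 0, 0 and 1 counts against 47, 28 and 50, a ratio of 139 (24.5 to 5539), with a wide interval because the Ctrl side is 1 count.

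Among the IgG receptors, Fcgr3, an activating receptor, had 2, 0 and 0 counts in Ctrl and 147, 117 and 149 in Qk-iCKO, a ratio of 230 (63.2 to 1904). Fcgr2b, the inhibitory receptor of the family, had 5, 0 and 2 against 190, 134 and 136 counts, a ratio of 73.1 (35.2 to 183). The activating and the inhibitory receptor were thus both far above Ctrl in every Qk-iCKO lens. Fcgr4, whose promoter is shown above, had 0, 0 and 2 against 21, 17 and 14 counts, a ratio of 28.9 (7.62 to 245). The high-affinity receptor Fcgr1 was different, with 0, 0 and 4 counts in Ctrl and 0, 9 and 1 in Qk-iCKO, groups that overlap. Fcgr2b, Fcgr3 and Fcgr4 are close relatives, and how the counting divided reads they share is uncertain.

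Pattern and scavenger receptors held the largest fold of the list. Clec7a (dectin-1), a receptor for fungal beta-glucans, had 1, 1 and 0 counts in Ctrl and 262, 102 and 241 in Qk-iCKO, a ratio of 337 (92.8 to 2787). Msr1, the class A scavenger receptor, had 1, 4 and 1 against 58, 31 and 38 counts, a ratio of 23.6 (10.5 to 65.4). Cd14, the co-receptor for bacterial lipopolysaccharide, was far lower in counts, with 0, 1 and 2 in Ctrl and 7, 4 and 5 in Qk-iCKO, and was under the filter. Ly86 (MD-1), a partner of the Toll-like receptor homologue RP105, had 0, 2 and 0 against 16, 29 and 21 counts. Ms4a7, a tetraspan membrane protein gene of macrophages, had 0, 1 and 0 against 7, 22 and 10, and was under the filter. In every one of these genes the groups were apart.

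Genes of the phagosome and lysosome included the most counted gene of the list. Gpnmb, a transmembrane glycoprotein of lysosomes in phagocytes and of melanosomes in pigment cells, had 13, 19 and 13 counts in Ctrl and 2689, 1438 and 1404 in Qk-iCKO (log2 fold change 7.06 ± 0.22 SE), and it made up 40.5% of the counts of the list in Qk-iCKO. On TMM-scaled CPM the 3 Qk-iCKO lenses were at 165, 139 and 141, with lens 1 at the outlying TMM factor of 1.47. The library totals of lenses 1, 2 and 3 were 11072533, 11273813 and 10319320. By total counts alone, Gpnmb was thus well higher in lens 1 than in the other Qk-iCKO lenses, and how close the lenses were depends on the scaling. Markers of pigment cells were counted as well, since they share this gene. The summed level of 6 of them was 4.25 to 9.26 CPM in Ctrl and 8.67 to 138 in Qk-iCKO, with Tyr (tyrosinase) at 4, 2 and 1 against 124, 5 and 2 counts and Dct at 21, 28 and 18 against 1050, 65 and 21. The pigment markers summed to 138, 23.5 and 8.67 CPM in Qk-iCKO lenses 1, 2 and 3. The part of pigment cells in the Gpnmb counts was not tested. Cd68, a lysosomal glycoprotein used to stain macrophages, had 2, 2 and 3 counts in Ctrl and 248, 54 and 155 in Qk-iCKO, a ratio of 72.7 (35.0 to 182). Lyz2, the lysozyme of myeloid cells, had 4, 6 and 12 against 177, 58 and 94 counts (log2 fold change 3.99 ± 0.41 SE). Its near-identical neighbour Lyz1 had 2 counts in all 6 lenses, and reads shared by these copies are uncertain. The exonuclease gene Pld4 (13.9-fold) and the perforin-like gene Mpeg1 (10.2-fold) were also above Ctrl in every Qk-iCKO lens.

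All 5 genes of the phagocyte NADPH oxidase, which makes superoxide in the phagosome, were higher in every Qk-iCKO lens. The catalytic subunit Cybb (gp91phox) had 1, 4 and 11 counts in Ctrl and 84, 28 and 40 in Qk-iCKO, a ratio of 10.6 (6.31 to 19.0). Ncf1 (p47phox), its cytosolic organizer, had 0, 1 and 2 against 69, 40 and 37 counts, a ratio of 54.2 (18.2 to 266). The membrane partner Cyba (p22phox), which other tissues also express, had 24, 24 and 30 counts in Ctrl, the third largest Ctrl sum of the list, and 162, 90 and 107 in Qk-iCKO (log2 fold change 2.35 ± 0.19 SE). The haematopoietic GTPase gene Rac2 (34.8-fold) was called as well, and Ncf4 (p40phox), with 0, 0 and 1 against 32, 6 and 14 counts, was under the filter. Of 7 further oxidase and lysosome genes, 5 were tested and 4 rose, among them Acp5, tartrate-resistant acid phosphatase (0, 1 and 0 against 99, 32 and 47 counts), Ctss, cathepsin S (2, 7 and 7 against 387, 193 and 323), and Slc11a1, a metal transporter of the phagosome (log2 fold change 3.36).

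The cytoplasmic signalling genes held some of the smaller differences of the list. Plek (pleckstrin), a protein kinase C substrate of platelets and leukocytes, had 38, 43 and 48 counts in Ctrl and 193, 91 and 212 in Qk-iCKO, the smallest log2 fold change among those called (2.14 ± 0.33 SE). The Src-family kinase gene Lyn had 8, 6 and 2 against 101, 42 and 35 counts (3.50 ± 0.50 SE). Alox5ap, which presents arachidonic acid to 5-lipoxygenase, had 26, 17 and 11 against 45, 23 and 25 counts (0.88 ± 0.40 SE), and it and Csf2ra were the 2 genes tested and not called. On the CPM scale its groups did not overlap, at 0.753 to 2.15 in Ctrl and 2.22 to 2.76 in Qk-iCKO. Aif1 (IBA1), the usual antibody target for macrophages and microglia, had no count in Ctrl and only 2, 8 and 3 in Qk-iCKO, at least 4.82-fold higher. Was, the actin regulator mutated in Wiskott-Aldrich syndrome, likewise had 0 against 3, 6 and 7. Of the immune surface genes, the SLAM-family receptor gene Cd84 had 0, 1 and 2 against 73, 49 and 65 counts, a ratio of 69.4 (23.4 to 339), the costimulatory ligand gene Cd86 had 0 against 4, 5 and 3, and Lst1 had 0 against 6, 2 and 0.

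The calls rested on few Ctrl counts, and 5 of the 30 depended on a single library in the sense that leaving 1 out ended the call. These were Rac2 (log2 fold change 4.39 without Ctrl lens 1 and 4.30 without Ctrl lens 3), Ly86 (4.60 and 4.49 without the same lenses), Cybb (3.15 without Ctrl lens 2), Mpeg1 (3.16 without Ctrl lens 1) and Coro1a (1.82 to 2.52 without Ctrl lens 1, 2 or 3 or Qk-iCKO lens 2 or 3). The other 25 calls held with any 1 of the 6 lenses left out. The same lenses chose the genes, so a call that held does not test the list.

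Summed over the 42 genes, the level was 19.0 to 19.9 CPM in the Ctrl lenses and 382, 327 and 405 CPM in Qk-iCKO lenses 1, 2 and 3. Without Gpnmb it was 17.6 to 19.0 CPM in Ctrl and 189 to 264 CPM in Qk-iCKO. The Ctrl lenses thus differed little from each other, although 12 to 18 of the 42 genes had no count in any one of them. Within Qk-iCKO, the 40 genes with counts in all 3 lenses varied by a median of 1.84-fold between the highest and the lowest lens, from 1.13-fold for Ncf1 to 6.31-fold for Aif1. Lens 3 had the highest CPM for 22 of the 42 genes, lens 1 for 12 and lens 2 for 8. With library totals in place of TMM sizes, lens 1 was highest for 29, lens 2 for 6 and lens 3 for 7, so the order of the 3 lenses depends on the scaling, and no order is read from it. The lens 1 sum was 563 CPM on that scale and 382 on the other.

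**Figure D2:**
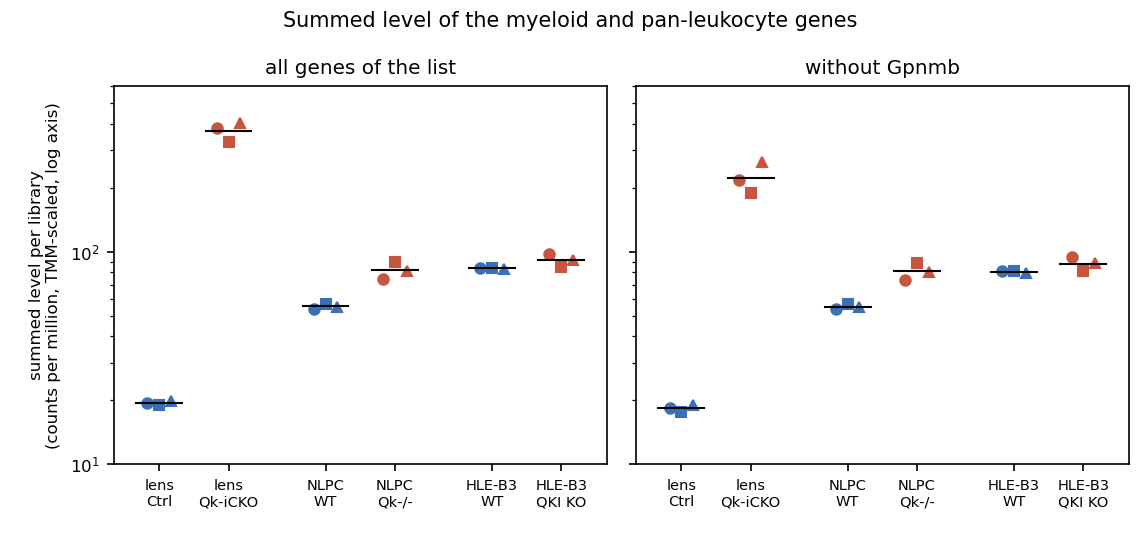
Summed level of the genes in each of the 18 libraries, in TMM-scaled CPM on a log axis, with and without Gpnmb. Circles, squares and triangles are replicates 1, 2 and 3, and horizontal lines are group means. The lens groups lie at 19.0 to 19.9 and 327 to 405 CPM, and the culture groups lie between 53.9 and 97.5 CPM.

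To compare levels between genes, CPM were divided by the length in kilobases of all exons of the gene (GENCODE M21, GRCm38). In the Qk-iCKO lenses Gpnmb was highest on this scale, at 22.8 ± 2.18 CPM per kb (SD, n = 3), followed by Tyrobp at 12.1 ± 1.29, Cd68 at 9.55 ± 4.68, Cyba at 9.43 ± 1.01, Fcgr3 at 6.78 ± 1.75, Lyz2 at 6.56 ± 2.06, Clec7a at 6.34 ± 2.74 and Csf1r at 5.59 ± 1.13. From Tyrobp onwards the ranges of mean ± SD of neighbouring genes in this order overlapped. Ptprc, the general leukocyte marker, was among the lowest on this scale, at 0.213 ± 0.0839, with Was, Fcgr1 and Cd86 below it. It also had the greatest exon length of the list, at 18313 bases, followed by Lcp1 at 9504. The low place of Ptprc thus depends on dividing by all exons, and its place with a shorter length was not tested. In Ctrl lenses the highest were Csf2ra (2.11), Cyba (1.84), Alox5ap (0.966) and Plek (0.705 CPM per kb), and the sum of the Ctrl counts was thus carried mostly by genes other than those that led in Qk-iCKO.

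Other leukocyte genes, 122 in lists that the 42 do not contain, were counted in the same lenses to describe which kinds of leukocyte transcripts were present. These lists were also chosen with earlier results of these data known. Of the 122, 56 were tested, 36 were called higher and none lower, and 25 had no count in any lens. Over all lens genes tested, 8.38% were called higher and 3.88% lower. The leukocyte integrins Itgam (CD11b; 2, 1 and 1 against 132, 36 and 65 counts) and Itgb2 (CD18; 0, 3 and 3 against 281, 39 and 101) were both called. Itgax (CD11c) had no count in Ctrl and 143, 9 and 113 in Qk-iCKO, and was under the filter. Of 16 genes of immune tyrosine kinase signalling, 11 were tested and 7 rose, led by Sla (2, 0 and 1 against 103, 40 and 40 counts) and Blnk (4, 1 and 0 against 58, 27 and 19), with Inpp5d (log2 fold change 3.80) and Pik3ap1 (3.57). Of 12 Toll-like receptors and adaptors, 8 were tested and 5 rose, among them Tlr8 (0 against 27, 38 and 50 counts), Tlr7 (log2 fold change 4.53), Tlr4 (4.02) and Unc93b1, the trafficking chaperone of nucleic acid-sensing receptors (4.29). Of 10 further myeloid transcription factors, 9 were tested and 6 rose, led by Runx1 (4.53), Cebpa (4.43), Irf5 (4.40) and Cebpb (3.45).

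The genes that mark kinds of leukocyte were not all higher. Of 10 tissue macrophage markers, 8 were tested and 7 rose: Siglec1 had 1, 2 and 2 counts in Ctrl and 89, 123 and 55 in Qk-iCKO, Adgre1 (F4/80) 4, 0 and 4 against 144, 94 and 94, Folr2 4, 1 and 0 against 62, 64 and 42, and Cd163 16, 14 and 8 against 346, 337 and 184, with Lyve1, F13a1 and Mertk called too. Marco had no count in any lens and Timd4 had 3 in all. Of 10 microglia markers, 4 were tested and 2 rose, among them Fcrls (1, 1 and 4 against 13, 27 and 49 counts). P2ry12 had 3, 4 and 8 against 7, 12 and 18 counts, Tmem119 0, 1 and 0 against 0, 2 and 1, Cx3cr1 5, 7 and 4 against 5, 19 and 1, and Siglech none. Of 7 genes listed as monocyte markers, Chil3, a secreted chitinase-like protein also made by alternatively activated macrophages, had 1, 1 and 2 counts in Ctrl and 8068, 2462 and 1694 in Qk-iCKO (log2 fold change 11.4 ± 0.66 SE), more than any of the 42 genes. F10 had 0 against 47, 19 and 38. The classical monocyte markers Ly6c2 and Ccr2 had no count in any lens and 0, 0 and 2 against 2, 0 and 0 counts.

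Neutrophil, lymphocyte, dendritic and mast cell genes had few counts. Of 12 neutrophil genes, 8 had no count in any lens (S100a8, S100a9, Ly6g, Mpo, Elane, Camp, Ngp and Mmp8), and Csf3r, the receptor for G-CSF, which monocytes also carry, was called with 0 against 21, 21 and 14 counts. The neutrophil list summed to 2.12 to 2.48 CPM in Ctrl and 4.59 to 6.18 in Qk-iCKO, and the dendritic cell list to 1.99 to 2.73 and 3.92 to 4.44, with no overlap in either. Of 12 T and NK cell genes, 5 had no count (Cd3e, Cd8a, Trac, Ncr1 and Gzma), 1 was tested and none was called. Of 7 B cell genes, Cd79a and Blk were among those with no count and the 1 tested was not called. Of 7 dendritic cell genes, Xcr1, Clec9a and Ccr7 had no count and neither of the 2 tested was called. Of 6 mast cell genes, Cpa3, Tpsb2 and Ms4a2 had no count and none was tested. A count of 0 in 3 Qk-iCKO lenses allows up to 3 counts over their summed effective size. Calls that ended when 1 lens was left out included those of Fcrls (log2 fold change 3.80 to 4.97, any 1 Ctrl lens), Irf5 (3.90 without Ctrl lens 1), Blnk (4.05 without Ctrl lens 2) and Inpp5d (3.72 without Ctrl lens 2).

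Markers of other cells that a dissected lens could carry were counted beside these. Of 57, 41 were tested, 5 rose and 1 fell, where 8.38% of all lens genes tested were called higher and 3.88% lower. These counts are near the shares of all genes and are not read as a result about the other cells. The endothelial genes Vwf (13, 18 and 21 against 135, 53 and 61 counts), Pecam1 (6, 7 and 16 against 63, 17 and 43) and Tek (30, 47 and 59 against 243, 68 and 114) rose, as did Cspg4 and Col3a1 of pericytes and fibroblasts, and Mip, the lens fibre water channel AQP0, fell by 1.69 on the log2 scale (SE 0.37). The summed level of the 8 endothelial markers was 11.9 to 16.6 CPM in Ctrl and 23.8 to 37.5 in Qk-iCKO, while the 42 leukocyte genes went from 19.0 to 19.9 to 327 to 405 in the same lenses. The sum of the photoreceptor and retina markers was 4.45 to 634 CPM in Ctrl and 18.3 to 99.7 in Qk-iCKO, highest in Ctrl lens 2, and that of erythroid markers was 1.30 to 2.98 and 1.21 to 6.49. The part of other tissue on the lenses in the leukocyte counts was not tested. The calls of Tek (Ctrl lens 1 or 2), Pecam1 (Ctrl lens 1 or 2, Qk-iCKO lens 1 or 3), Cspg4 (any Ctrl lens, Qk-iCKO lens 1) and Mip (any Ctrl lens, Qk-iCKO lens 3) ended when the lens named was left out, with log2 fold changes of 1.56 to 1.74, 1.98 to 2.07, 1.54 to 2.15 and -1.77 to -1.63. The call of Col3a1 ended without any 1 of the 6 lenses (1.04 to 1.28), and also with DESeq2, with total counts alone and with every gene of at least 1 count tested. Of these genes, only the call of Vwf held with any 1 lens left out.

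**Figure D3:**
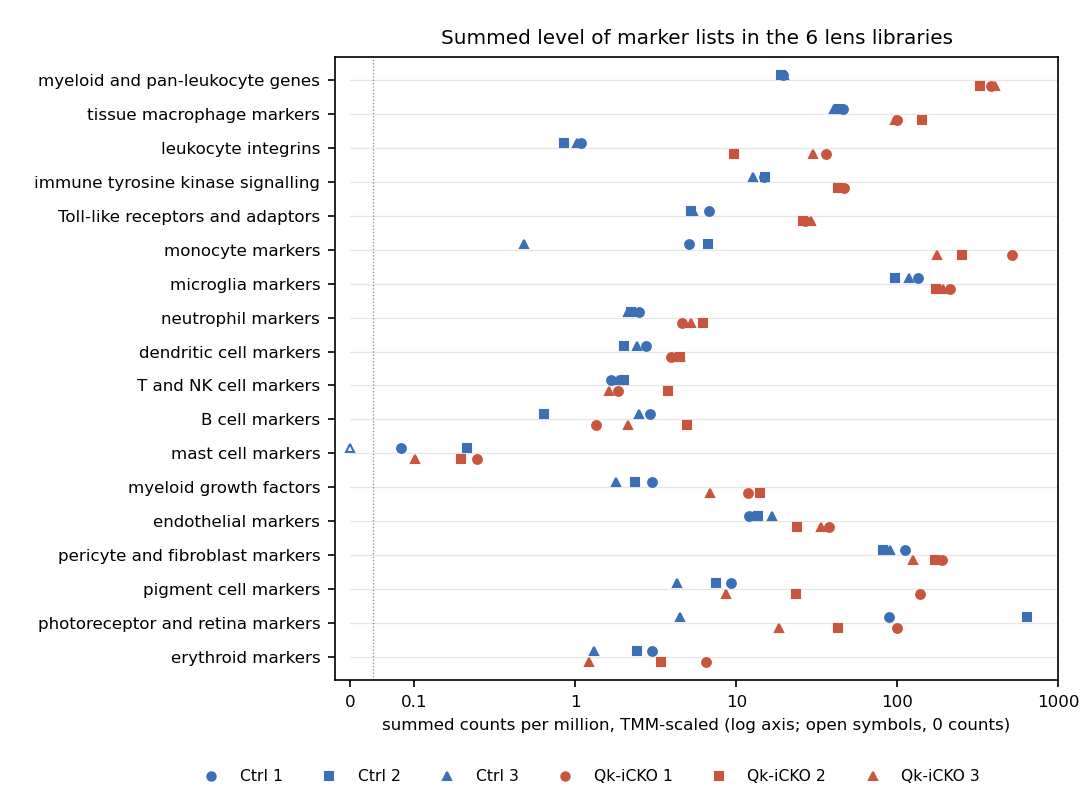
Summed level of the 42 genes and of the marker lists in each lens library, in TMM-scaled CPM on a log axis. Blue symbols are Ctrl lenses, red symbols Qk-iCKO lenses, and the open symbol is a library with 0 counts. The groups do not overlap for the 42 genes, for the macrophage, integrin, kinase signalling, Toll-like receptor, monocyte, microglia, neutrophil, dendritic cell and growth factor lists, or for the endothelial and pericyte and fibroblast markers, all higher in Qk-iCKO. They overlap for the T and NK, B cell, mast cell, pigment, retina and erythroid markers.

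NLPCs and HLE-B3 cells are cultures to which no leukocytes were added, and their counts were not used to choose the genes. In NLPCs the members were mostly near the floor, and 36 of the 42 had a mean under 1 CPM in both groups. The counts that were there came largely from Lyn, Csf2ra, Plek, Lyz2 and Cd68, which together made up 91.3% of the list in WT. Of the 17 genes that passed the filter, 1 was called in the edgeR test, against 10.7% of all 20371 genes tested (4.74% higher and 5.96% lower). It was Lyn, with 1327, 811 and 1342 counts in WT and 1877, 905 and 2416 in the libraries labelled Qk-/- (log2 fold change 0.86 ± 0.13 SE, edgeR adjusted p = 0.0056). Without WT replicate 3 the Lyn call was lost (0.86, edgeR adjusted p = 0.054). Ptprc had 0, 32 and 34 counts against 6, 74 and 16, Csf1r 10, 15 and 4 against 6, 42 and 18, and Spi1 0, 5 and 0 against 2, 26 and 0, and the groups overlapped in each. Cd68 had 277, 208 and 288 against 327, 184 and 325 counts and did not pass the test (0.42 ± 0.18 SE, edgeR adjusted p = 0.19). The summed level was 53.9 to 57.1 CPM in WT and 74.2 to 89.8 in the libraries labelled Qk-/-, of which Lyn alone supplied 35.1% and 44.8% of the counts.

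Groups were apart with the libraries labelled Qk-/- higher in 8 of the 42 genes and lower in 1, Cd14 (37, 20 and 53 against 12, 0 and 21 counts). Of the 17 genes tested, 6 were apart higher and 1 lower, where 15.9% and 19.3% of all NLPC genes tested were apart in those directions. Replicate 2 labelled Qk-/- was the shallowest NLPC library and the least like its own group, with a mean correlation of 0.908 to the others. It had the highest CPM of all 6 libraries for 23 of the 37 genes with any count in the libraries labelled Qk-/-. The genes counted in WT alone are left out of these 37. Among 119 other leukocyte genes with a count in any NLPC library, lymphoid and mast cell genes included, it was highest for 68. Without it, Lyn was the 1 call (0.95, edgeR adjusted p = 0.00032), where 3797 of all 21127 genes tested were called. Over all NLPC genes tested, 4.74% were called higher and 5.96% lower. Of the 122 other leukocyte genes, 53 were tested and 6 rose (Ptpn6, Tlr4, Ly96, Maf, Vcan and Pax5) while Tlr2 and Sall1 fell. With replicate 2 labelled Qk-/- left out these were 8 and 2. Leaving out replicate 1 or 3 labelled Qk-/- left 5 calls each, WT replicate 1 left 1, and WT replicate 2 or 3 left 2 each. Of the 6 called higher, Maf, Vcan and Pax5 are also genes of neural or lens cells, and Kitl, the ligand of the KIT receptor, rose by 1.50 ± 0.10 (SE) on the log2 scale.

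In HLE-B3 cells, 5 of the 38 genes present had no count in any library (CD48, FCGR2B, LY86, MS4A7 and MPEG1), and 29 had a mean under 1 CPM in both groups. CYBA, LYN and ARHGDIB made up 84.9% of the counts of the list in WT. Of 13 genes tested, 1 was called higher and 3 lower, against 17% and 16.3% of all 19049 genes tested. ARHGDIB rose, with 494, 455 and 447 counts in WT and 850, 542 and 698 in QKI KO (log2 fold change 0.65 ± 0.15 SE, edgeR adjusted p = 0.0025). CSF1R fell, with 237, 200 and 198 against 104, 76 and 74 counts (-1.25 ± 0.25 SE, edgeR adjusted p = 0.00079). LCP1 had 139, 63 and 71 against 24, 33 and 26 counts and also fell (-1.61 ± 0.42 SE, edgeR adjusted p = 0.0072). CD52 had 50, 48 and 16 against 8, 0 and 7 counts (-2.83 ± 0.88 SE, edgeR adjusted p = 0.020). Of the 4 calls, 3 were thus lower, at mean levels of 2.80 CPM or less. Because the genes were chosen as higher in the lens, any lower call is opposite to the lens. In either direction, 4 of 13 genes were called, where 33.3% of all genes tested were. These calls are therefore not read as a result about the list, and the difference between the systems was not tested.

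The calls of CD52 and LCP1 depended on single WT libraries. CD52 was lost without WT replicate 1 (-2.64, edgeR adjusted p = 0.089) or WT replicate 2 (-2.57, edgeR adjusted p = 0.10), and LCP1 without WT replicate 1 (-1.24, edgeR adjusted p = 0.065). CYBA, at 2765, 2639 and 2342 counts in WT and 3086, 2485 and 2957 in QKI KO, missed the threshold (0.21 ± 0.08 SE, edgeR adjusted p = 0.051). LYN, GPNMB, CD68 and CORO1A did not pass the test. PTPRC had no count in WT and 16, 0 and 0 in QKI KO, and SPI1 had 6, 0 and 0 against none. The summed level was 83.3 to 84.2 CPM in WT and 84.7 to 97.5 in QKI KO. Over all HLE-B3 genes tested, 17% were called higher and 16.3% lower. Of 110 other leukocyte genes found in the human table, 39 were tested, 6 rose and 9 fell. Among them TLR2 had 77, 33 and 63 counts in WT and 0, 0 and 1 in QKI KO, and DOCK2 rose from 392, 403 and 430 to 1085, 980 and 945.

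**Figure D4:**
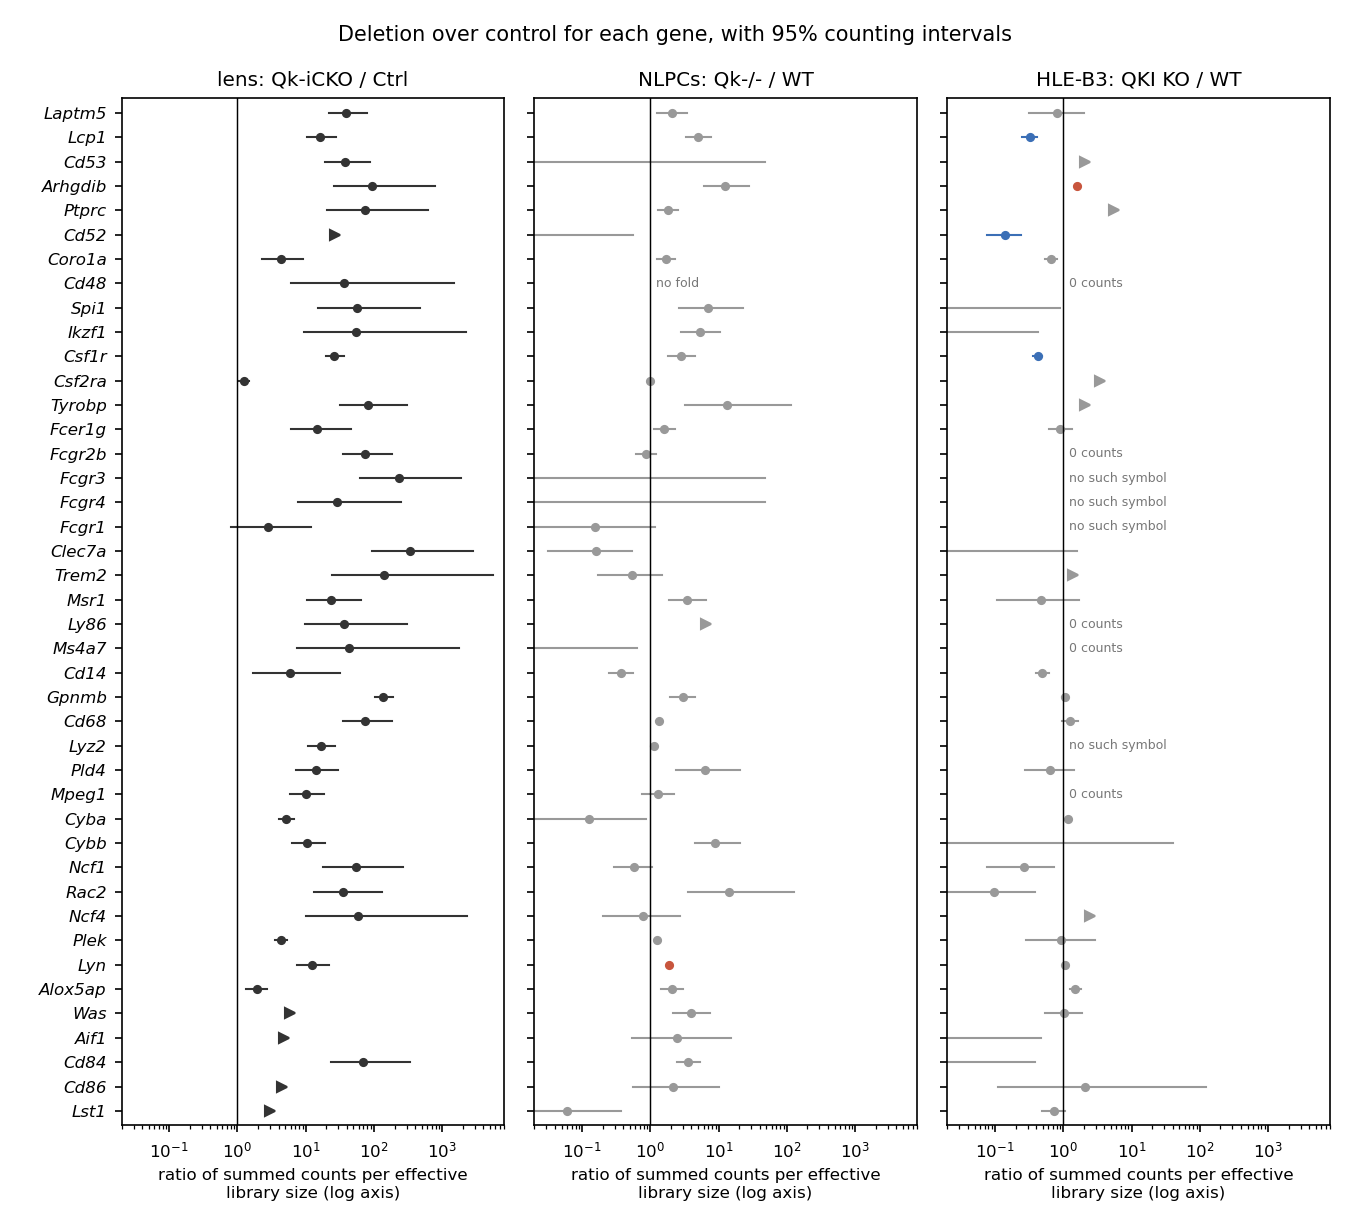
Deletion over control for each of the 42 genes in the lens, NLPCs and HLE-B3 cells, as the ratio of summed counts per effective library size on a log axis. Points are ratios, lines are 95% intervals for counting error only (cut at the axis, and with no point where the deletion group has 0 counts), and triangles are lower bounds for genes at 0 in the control group. In the culture panels red and blue mark genes called higher and lower by edgeR (Lyn in NLPCs, and ARHGDIB, CSF1R, LCP1 and CD52 in HLE-B3), and lens ratios, which chose the genes, are not tested.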

How the data were processed

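RNA-seq libraries of lenses, NLPCs and HLE-B3 cells were each deposited as a table of raw read counts per gene, with no normalization. Per the study's methods, the authors aligned stranded paired-end reads with STAR 2.6.1b to mm10 or hg19 and counted genes with HTSeq 0.11.0. The submitters' processing notes also name HISAT2 2.0.4 and featureCounts, and the lens table lists another gene set, so the lens counts may have been made differently. Tables were not compared by level.

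Groups came from the labels. Each table was fitted alone with edgeR 4.0.16 in R 4.3.3 (filterByExpr with a minimum count of 10 and a minimum total of 15, TMM factors, quasi-likelihood test, Benjamini-Hochberg adjustment over all genes of the table, threshold 0.05). Fitted log2 fold changes of genes near 0 in a group depend on the prior count of 2 and are no bounds, so ratios of summed counts with 95% exact binomial intervals, or a floor of 3 counts over the group, are given instead. They cover counting error only. DESeq2 1.42.0, other filters and scalings, a replicate block and leaving out each library were tried. The scripts were tested on simulated data. The 42 genes, the marker lists and the rule that all members are named were chosen with earlier results of these data known.

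Same-numbered libraries deviated together in the lens (correlations of 0.233, 0.133 and 0.523) and in NLPCs (0.123, 0.320 and 0.145), over 0.1 in every pair, and not in HLE-B3 (0.0613, 0.0566 and -0.0495). Differently numbered libraries ranged from -0.392 to 0.279 in the lens and from -0.303 to 0.232 in NLPCs, so some correlated as strongly. The labels give only the shared numbers, and the pairing is a hint from the data. A few genes of the marker lists are counted but not reported here by name.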

Additional observations from a re-analysis of the deposited data

Results flagged for a closer look

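For 5 genes, every deletion library lay above every control library in one system and below in another, by the ratio of summed counts per effective library size. Among all genes tested, the groups did not overlap in 18.2% of lens genes (deletion higher), 15.9% and 19.3% of NLPC genes (higher and lower) and 22.6% of HLE-B3 genes (lower), and the share of all genes with opposite directions was not computed. The differences between systems were not tested, and lens tissue, mouse culture and human line were counted in separate tables. Csf1r had a ratio of 26.3 in the lens and 0.420 in HLE-B3. Cd52 was at least 26.7-fold higher in Qk-iCKO lenses and had a ratio of 0.138 in HLE-B3. Rac2 had a ratio of 34.8 in the lens and 0.0955 in HLE-B3, where the counts were 10, 6 and 6 in WT and 1, 1 and 0 in QKI KO. Cd14 had a ratio of 5.94 in the lens and 0.373 in NLPCs. Lcp1 had ratios of 16.5 in the lens, 4.93 in NLPCs and 0.319 in HLE-B3.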

How the results depend on the processing

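Of the counts and summed levels recomputed under other settings, 41 kept their value within 1.5 times or 1 SD and 7 moved. Requiring at least 10 counts in every library left 5 of the 42 genes to test in the lens, of which 3 were called in place of 30, and 17 of the other leukocyte genes, of which 6 were called in place of 36, since genes near 0 in Ctrl are removed by it. DESeq2 called 2 of the 42 in NLPCs in place of 1, 15 other leukocyte genes there in place of 8, and 12 markers of other cells in the lens in place of 6, and testing every gene with at least 1 count called 17 of these. The cause was not tested. With total counts alone the mean summed level in Qk-iCKO was 418 in place of 372 CPM. Among all lens genes, DESeq2 called 1419 higher and 644 lower, and testing every gene with at least 1 count called 1904 and 617. Leaving out 1 library moved the calls among all genes from 1496 to between 581 (without Ctrl lens 1) and 1709 (without Qk-iCKO lens 3) in the lens and from 2179 to between 681 (without WT replicate 3) and 3797 (without replicate 2 labelled Qk-/-) in NLPCs. It gave 27 to 32 calls among the 42 in the lens, 0 to 1 in NLPCs and 2 to 5 in HLE-B3, 28 to 38, 1 to 10 and 13 to 16 among other leukocyte genes, 1 to 8 among markers of other cells, and mean sums of 355 to 394, 77.7 to 85.5 and 88.2 to 94.6 CPM. With 2 libraries left in a group, the spread was shared with the other group.

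With the replicate block, 30 of the 42 were called in the lens, 1 in NLPCs and 4 in HLE-B3, and 40, 6 and 15 other leukocyte genes, with 9 markers of other cells in the lens. The block ended the calls of Col3a1 in the lens and of Tlr2 and Ly96 in NLPCs, and, in HLE-B3, where the numbers do not pair the libraries, of VWF, PRPH2 and PROX1. It ended no other call among the genes followed over the settings. These were the called genes of the 42 and the most changed called genes of each other list. Depth limits the genes with few Ctrl counts, whose ratios have wide intervals.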

Other observations

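Growth factor genes were also called within each culture. In HLE-B3, CSF1 fell, with 1232, 1338 and 994 counts in WT and 747, 591 and 599 in QKI KO (log2 fold change -0.81 ± 0.13 SE, edgeR adjusted p = 9.4e-05). In NLPCs, Kitl had 5107, 2824 and 4540 counts in WT and 10210, 6360 and 11146 in the libraries labelled Qk-/-.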
